A study of Mus musculus with 2 samples.

Results

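The genes described here carry out fatty acid oxidation in mitochondria and peroxisomes or build the peroxisome itself. Members were protein-coding genes of the deposited count table whose symbols begin with Acad, Acaa, Acot, Acox, Acsl, Cpt1, Cpt2, Hadh or Pex and a digit, together with 16 single genes such as Ehhadh, Cat, Pdk4 and Slc27a2. This gave 75 of 45777 genes in the table. RNA came from whole kidneys of mice, sequenced as 1 control library and 1 library from conditional knockout (CKO) mice in which Inmt, the gene of indolethylamine N-methyltransferase, was targeted in the proximal tubule. Both groups ate standard chow, had free access to water and received no treatment. The labels used here give no age, sex, strain, Cre driver or number of animals behind a library, so a library may be 1 animal or a pool. Since each condition was sequenced once, the differences below are differences between these 2 libraries, they have no replicate check, and no test or p-value is given.

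Fatty acids are activated to acyl-CoA esters before they are burned. Long-chain acyl-CoA crosses into mitochondria as acylcarnitine and is shortened there by repeated cycles of dehydrogenation, hydration, a second dehydrogenation and thiolytic cleavage, while peroxisomes shorten very long, branched and dicarboxylic chains with oxidases that make hydrogen peroxide. The proximal tubule, which reabsorbs most filtered solute and is packed with mitochondria and peroxisomes, relies on fatty acids as its main fuel. Peroxins are the proteins that import enzymes into peroxisomes and make the organelles divide, and the nuclear receptor PPAR-alpha switches on many genes of both organelles.

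The control library held 33618076 reads on genes, the CKO library 38136616. Values are CPM, the reads of a gene per Mread of library, with library sizes scaled by TMM to 30.1 (control) and 42.6 Mreads (CKO), and log2 ratios divide CKO by control after 0.5 CPM is added to each. Intervals in parentheses are exact 95% intervals (Clopper-Pearson for ratios) that cover counting error only. Inmt itself had 17678 control and 5283 CKO reads, 587 and 124 CPM, and was 4.73-fold lower in CKO (4.59 to 4.88).

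Nearly all expressed members were lower in the CKO library, most by less than 2-fold. Of the 75 members, 71 reached 1 CPM in either library, and 64 of these 71 (90.1%) had a log2 ratio below 0, against 49.3% of all 15129 expressed genes; 7 members and 50.7% of all expressed genes were above 0. At the 2-fold limit, 2 members were lower, Acot12 and Ehhadh, and 2 were higher, Cpt1c and Pdk4. That is 2.82% of the members in each direction, where 1.66% of all expressed genes passed the limit downward and 10.3% upward. Cpt1c met the minimum of 1 CPM through the CKO library only, with 0.93 CPM in the control and 4.58 in CKO. At a 1.5-fold limit, 21 members (29.6%) were lower and 3 (4.23%) higher, against 6.85% and 19.3% of all expressed genes. Among genes that reached 10 CPM, 68 members remained, with 2 past 2-fold downward and 1 upward, against 1.79% and 5.62% of 10189 genes. The median log2 ratio of the members was -0.40 and that of all expressed genes 0.01. In bulk RNA, fewer cells of a type and less RNA of its genes per cell cannot be told apart, and proximal tubule markers were lower too, with a median of -0.59.

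Abundant genes as a class were lower in CKO, and the members are mostly abundant, so the same counts were taken among genes that reached 50 CPM. There 45 of 47 members (95.7%) were below 0 against 72.9% of 4353 genes, and 19 of the 47 were at least 1.5-fold lower, a share of 40.4% against 13%. At 2-fold, 2 of these 47 were lower and none higher, against 2.78% and 3.03%, and Acsl4 was the 1 member at least 1.5-fold higher, against 5.77%. The medians were -0.48 for these members and -0.21 for these genes. Another set of abundant mitochondrial genes, 86 nuclear genes of the respiratory chain, was picked by symbol after the data had been seen. At the minimum of 1 CPM its 81 expressed genes had a median of -0.35, with 78 (96.3%) below 0 but 2.47% at least 1.5-fold lower. At that same minimum the members had a median of -0.40, with 90.1% below 0 and 29.6% at least 1.5-fold lower.

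**Figure D1:**
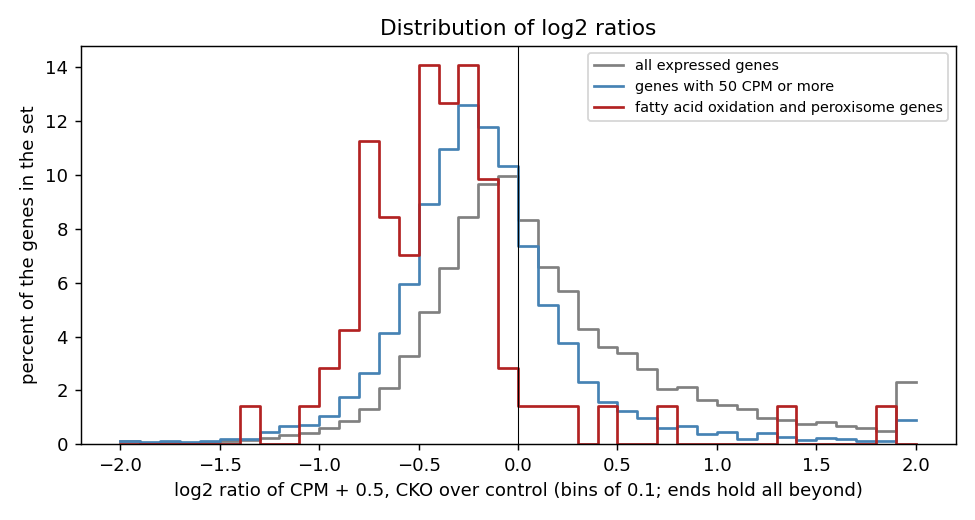
Log2 ratio of CPM + 0.5 (x axis, CKO over control) against the percent of each set's genes per bin of 0.1 (y axis) for all expressed genes, genes with 50 CPM or more and the 71 expressed members; the end bins hold all values beyond. The members sit to the left, with a median of -0.40 against 0.01 for all expressed genes and -0.21 for the abundant ones.

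The scaling sets where 0 lies. With library totals in place of TMM the median of all expressed genes moved to 0.32, and with the deposited TPM it moved to 0.40; the share of members below 0 was then 60.6% and 47.1%, against 20.6% and 15.4% of all expressed genes. Under every setting tried the median of the members stayed below that of all expressed genes, by 0.33 to 0.46. Another library scaling moves all log2 ratios by nearly the same amount, so it could hardly change this gap. Only the units, pseudocounts, minimums and sets of members kept could do so. Directions below are on the TMM scale. Of the 64 members below 0 there, 31 had a higher deposited TPM in CKO, and the lowest TMM log2 ratio among these was -0.42, for Ech1. Groups whose median turns are named where they occur.

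Together the members took 521073 control and 473567 CKO reads, 1.55% (1.546 to 1.554) and 1.24% (1.238 to 1.245) of all reads on genes. Slc27a2 alone held 24.7% and 22.8% of the members' reads. Per length, the deposited TPM of the members summed to 12837 for control and 11228 for CKO, which is 87.5% of the control sum.

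**Figure D2:**
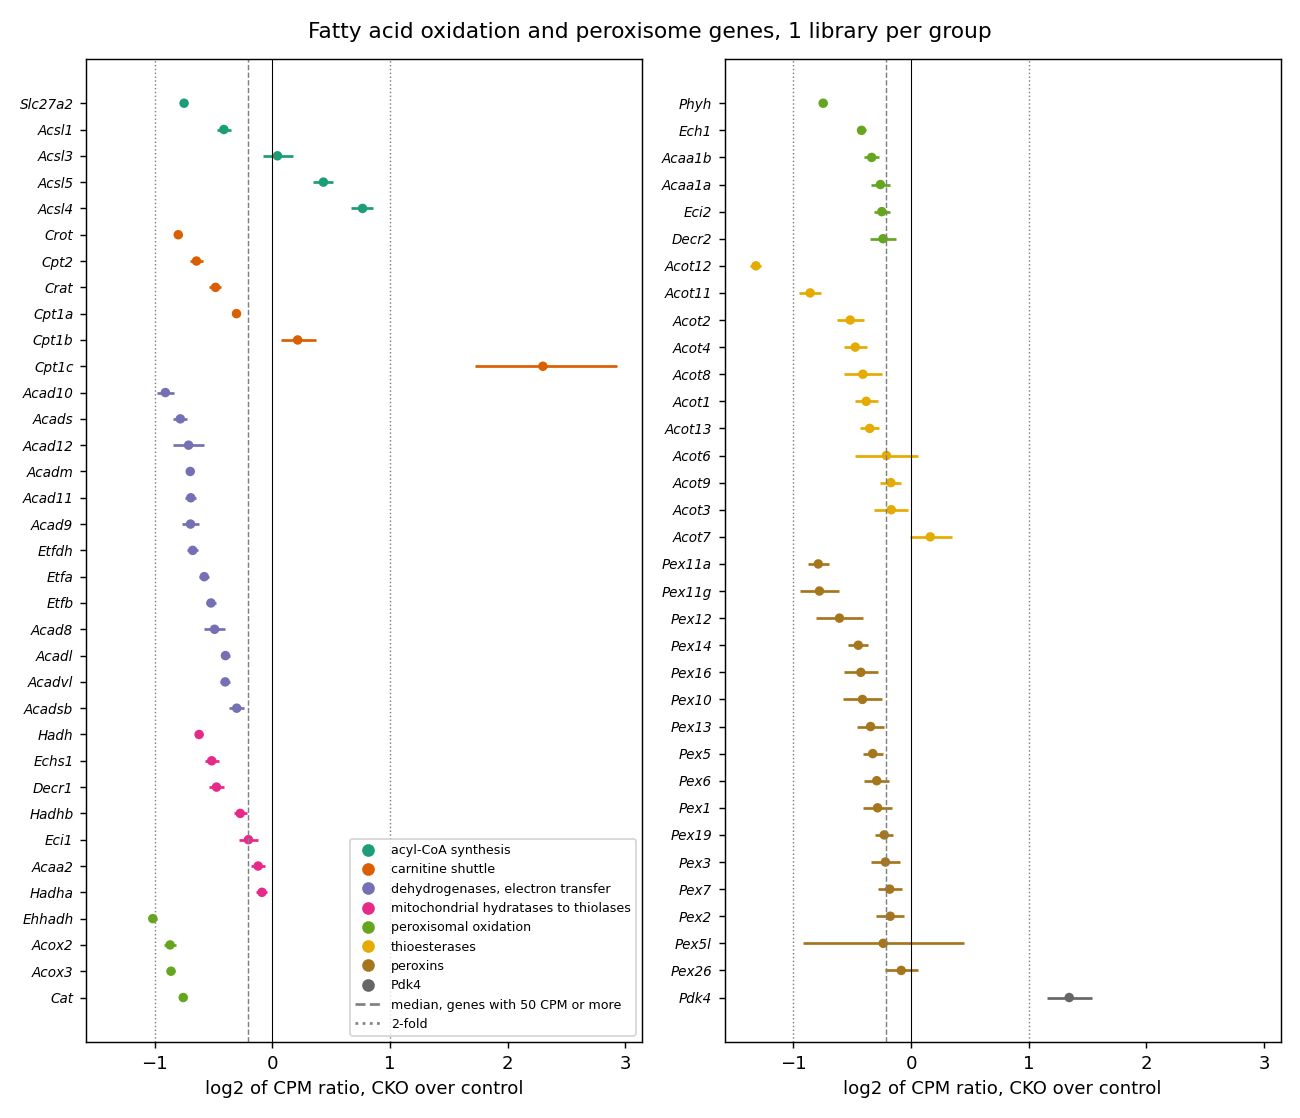
Log2 of the CPM ratio, CKO over control, for the expressed members reported here, coloured by role, with bars for the exact 95% counting interval (1 library per group, so no replicate error); the dashed line is the median of genes with 50 CPM or more. Acot12 and Ehhadh lie to the left of the lower 2-fold line and Cpt1c and Pdk4 to the right of the upper one, while most other points lie to the left of 0.

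Activation was split between a very abundant transporter and the long-chain synthetases. Slc27a2 (chromosome 2, 126553024 to 126588243 in GRCm38), the fatty acid transport protein FATP2 that also makes very long-chain acyl-CoA, had 128611 control and 107998 CKO reads, or 4271 and 2536 CPM. It was 1.68-fold lower in CKO (1.67 to 1.70), and at 3122 and 2484 TPM it was the most abundant member in both libraries. It is also on the list of proximal tubule markers given below. Of the 4 expressed Acsl genes, which make long-chain acyl-CoA, Acsl1 was lower (159 to 120 CPM, log2 ratio -0.41), Acsl3 was level (875 and 1276 reads, 0.04), and Acsl5 and Acsl4 were higher. Acsl5 was at 59.6 and 80.5 CPM, a ratio of 1.35 (1.27 to 1.43). Acsl4, which prefers arachidonic acid, had 1302 and 3126 reads, 43.2 and 73.4 CPM, and was 1.70-fold higher in CKO (1.59 to 1.81). At a log2 ratio of 0.76 it was the closest member short of the upper 2-fold limit.

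The make-up of the Acsl family therefore differed between the libraries. By TPM, Acsl1 was 53.4% of the control total of the family and 38.7% of the CKO total, Acsl5 25.5% and 33.0%, Acsl4 11.3% and 18.4%, and Acsl3 9.79% in both. The family summed to 128 TPM (control) and 178 TPM (CKO). On TPM the median log2 ratio of all expressed genes was 0.40, so these sums do not give a direction on the TMM scale. Acsl6 stayed under 1 CPM in both libraries with 13 and 25 reads.

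The carnitine shuttle carries acyl groups across membranes, with CPT1 at the outer and CPT2 at the inner mitochondrial membrane, and CROT and CRAT acting on peroxisomal and short chains. Crot was the lowest of these by ratio, with 17050 and 13849 reads, 566 and 325 CPM, and was 1.74-fold lower in CKO (1.70 to 1.78). Cpt2 went from 178 to 114 CPM (log2 ratio -0.64) and Crat from 207 to 148 (-0.48). Cpt1a, the liver-type isoform and the main CPT1 gene of these kidneys, differed less, at 615 and 497 CPM and a log2 ratio of -0.31. The group's median of -0.39 turned to 0.05 on TPM. Both scarce CPT1 isoforms were higher in CKO. Cpt1b, the muscle form, was at 21 and 24.5 CPM, a ratio of 1.16 (1.05 to 1.29). The Cpt1b transcript matches the overlapping Gm44502, with 0 and 34 reads, at 100% over 1841 bases, so this small ratio is uncertain. Cpt1c (chromosome 7, 44958483 to 44974880), a form known from neurons that resides in the endoplasmic reticulum, had 28 control and 195 CKO reads, or 0.93 and 4.58 CPM, a ratio of 4.92 (3.30 to 7.60). Its level stayed small beside Cpt1a: by TPM, Cpt1a was 95% of the 3 Cpt1 genes in control and 92.0% in CKO, Cpt1b 4.82% and 6.72%, and Cpt1c 0.194% and 1.30%.

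**Figure D3:**
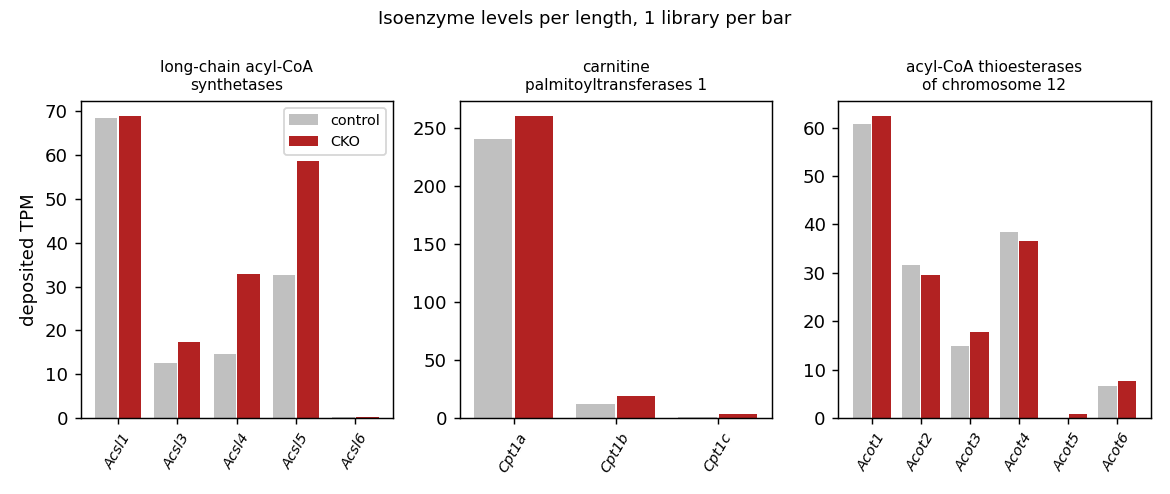
Deposited TPM (y axis) of each gene of 3 small families, with a grey bar for the control and a red bar for the CKO library (1 library per bar, so no error bars). Acsl1 is level on this unit at 68.5 and 69.0 TPM, where its log2 ratio on the TMM scale is -0.41. Acsl4 and Acsl5 are higher in CKO, and Cpt1a stands far above the other Cpt1 genes in both libraries.

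Acyl-CoA dehydrogenases such as those of Acadm, Acads, Acadl and Acadvl catalyse the first step of each mitochondrial cycle. They pass electrons through the flavoprotein ETF and its dehydrogenase to the respiratory chain. The group described here was formed by symbol and is not limited to that step. All 13 genes of this group were lower in CKO, with a median log2 ratio of -0.68 and a range from -0.90 for Acad10 to -0.30 for Acadsb. None was lower by 2-fold and 7 (53.8%) by at least 1.5-fold, against 6.85% of all expressed genes and 13% of genes that reached 50 CPM. The 7 were Acad9, Acad10, Acad11, Acad12, Acadm, Acads and Etfdh. Acadm, the medium-chain enzyme and the most abundant of the group per length, had 25909 and 22557 reads, 860 and 530 CPM, and was 1.62-fold lower (1.60 to 1.65). Acads, the short-chain enzyme, had 175 and 101 CPM (1.72-fold lower, 1.65 to 1.79). Acad10 had 125 and 66.4 CPM (1.88-fold lower, 1.79 to 1.97), but its transcript shares 95.2% of 1614 aligned bases with Acad12 and its locus overlaps Brap, so reads may have been split between them; Acad12 was at 34.9 and 21.3 CPM.

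Acadvl and Acadl differed less between the libraries than Acadm and Acads did. Acadvl, the very long-chain enzyme at the inner mitochondrial membrane, had 280 and 212 CPM and Acadl, the long-chain enzyme, 311 and 235 CPM, each 1.32-fold lower (1.28 to 1.36). Electron transfer genes lay between these, with Etfdh at 233 and 145 CPM (1.60-fold lower), Etfa at 294 and 197 (1.49-fold) and Etfb at 309 and 215 (1.44-fold). Counting intervals of Acadm and Acads did not overlap those of Acadvl and Acadl; the spread between animals is not known.

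The later steps of the mitochondrial cycle showed the smallest differences among the mitochondrial enzymes. All 7 genes were below 0, none beyond 2-fold and only Hadh beyond 1.5-fold, with a median of -0.27. Hadh, the dehydrogenase for short and medium chains and the most abundant of these per length, had 14536 and 13340 reads, 483 and 313 CPM, and was 1.54-fold lower (1.51 to 1.58). Echs1, the short-chain hydratase, had 146 and 102 CPM (log2 ratio -0.51). The trifunctional protein that handles long chains is encoded by Hadha and Hadhb, which lie head to head on chromosome 5 with 272 bases between them. Hadha was at 217 and 204 CPM (-0.09) and Hadhb at 164 and 136 CPM (-0.27), and the thiolase gene Acaa2 was at 139 and 128 CPM (-0.12). The group's median changes sign with the scaling, to 0.04 on library totals, 0.15 on TPM and 0.04 on FPKM, so its direction is not settled by these data.

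Peroxisomal oxidation had a median of -0.75, with all 11 expressed genes below 0. Of these, 1 (9.09%) was past 2-fold and 6 (54.5%) past 1.5-fold, against 1.66% and 6.85% of all expressed genes. Among genes that reached 50 CPM, as most of these genes did, the shares were 2.78% and 13%. With no minimum level, which adds Acoxl, the median was -0.58. With the minimum it was negative under each of the 7 scalings compared, from -0.76 to -0.32. Ehhadh (chromosome 16, 21761285 to 21787834), the bifunctional hydratase and dehydrogenase of the peroxisomal cycle, had 18767 control and 13120 CKO reads, or 623 and 308 CPM. It was 2.02-fold lower in CKO (1.98 to 2.07), just inside the 2-fold limit at a log2 ratio of -1.02.

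Peroxisomal acyl-CoA oxidases start each cycle, and Acox2 and Acox3 were lower by like amounts. Acox2, which acts on bile acid intermediates, had 8124 and 6282 reads, 270 and 148 CPM (1.83-fold lower, 1.77 to 1.89), and Acox3, for branched chains, 14683 and 11414 reads, 488 and 268 CPM (1.82-fold lower, 1.78 to 1.86). Both stayed short of the 2-fold limit, as did Acad10 at a log2 ratio of -0.90. Acoxl, related by symbol, had 2 and 3 reads.

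Catalase and phytanic acid oxidation were also lower. Cat, which breaks down the hydrogen peroxide that the oxidases make, had 39528 and 33016 reads, 1313 and 775 CPM, and was 1.69-fold lower (1.67 to 1.72). Phyh, the hydroxylase that starts breakdown of the branched phytanic acid, had 547 and 326 CPM (1.68-fold lower, 1.64 to 1.72). Ratios of 5 further members were smaller: Ech1, of unsaturated chains, had a log2 ratio of -0.42, the thiolases Acaa1b and Acaa1a -0.33 and -0.26, and the isomerase and reductase genes Eci2 and Decr2 -0.25 and -0.24. The transcripts of Acaa1a and Acaa1b match at 96.6% over 1428 bases, so their separate values are uncertain.

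Acyl-CoA thioesterases release free fatty acids from CoA. Acot12 (chromosome 13, 91741326 to 91786148), a cytosolic enzyme acting on acetyl-CoA, had the lowest ratio of all members, with 9661 control and 5473 CKO reads. These are 321 and 129 CPM, and it was 2.50-fold lower in CKO (2.41 to 2.58). A long non-coding gene overlapping it, 4833422C13Rik, had 25 and 65 reads. Acot11, a related enzyme of longer chains, was at 72.6 and 40.1 CPM (1.81-fold lower, 1.70 to 1.93) and its transcript shares 99.9% of 760 aligned bases with the overlapping Fam151a. The most abundant thioesterase gene per length, Acot13, was at 83.0 and 65.0 CPM, with a log2 ratio of -0.35 that turned to 0.07 on TPM.

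The 6 genes from Acot1 to Acot6 lie within 121923 bp of chromosome 12 and are close in sequence, with 93.8% identity over 1337 bases for Acot1 and Acot2, so reads may be assigned to the wrong copy. As a group they summed to 152 TPM in the control and 155 in CKO, and Acot1 held 39.9% and 40.3% of that sum. Acot5 had 0 reads in the control and 25 in CKO, both libraries under 1 CPM. Over the 11 expressed thioesterase genes the median was -0.38, and it turned to 0.04 on TPM.

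All 17 genes with peroxin symbols were expressed and below 0, but by small amounts, with a median of -0.29 and a range from -0.78 for Pex11a to -0.08 for Pex26. Counting intervals of the ratio included 1 for Pex26 (0.86 to 1.04) and Pex5l (0.529 to 1.37). Pex5l, taken in by its symbol, had 35 and 42 reads. The 2 genes with the lowest ratios encode PEX11 proteins, which elongate and divide peroxisomes. Pex11a had 2224 and 1820 reads, 73.9 and 42.7 CPM, and was 1.73-fold lower (1.62 to 1.84), and Pex11g had 643 and 530 reads, 21.4 and 12.4 CPM (1.72-fold lower, 1.53 to 1.93). Pex14, the membrane dock of the import machinery and the most abundant peroxin gene per length, was at 71.2 and 52.1 CPM (-0.45).

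The genes of receptors that carry proteins to the organelle had small ratios. Pex5, the receptor for most matrix enzymes, was at 72.1 and 57.6 CPM (1.25-fold lower), Pex7, the receptor for a smaller set, at 46.6 and 41.1 CPM (1.13-fold), and Pex19, which brings membrane proteins, at 88.9 and 75.9 CPM (1.17-fold). The peroxin median turned to 0.03 on library totals and 0.10 on TPM, and the summed peroxin TPM was 449 in the control and 463 in CKO. Summed TPM of the peroxisomal oxidation genes was 3626 in the control and 2975 in CKO, 82.0% of the control sum. That sum is carried by a few abundant genes: 6 of the 11 expressed peroxisomal oxidation genes had a lower TPM in CKO and 5 a higher one. Summed peroxin TPM was at 103% of the control sum.

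Pdk4 (chromosome 6, 5483351 to 5496278) was 1 of the 7 members above 0, with Cpt1c, Acsl4, Acsl5, Cpt1b, Acot7 and Acsl3. It encodes a kinase that shuts off pyruvate dehydrogenase and so spares glucose when fatty acids are burned, and it is a known target of PPAR-alpha. It had 296 control and 1064 CKO reads, 9.83 and 25 CPM, and was 2.54-fold higher in CKO (2.23 to 2.90). It was higher under each of the 7 scalings, by 1.29 to 1.67 on the log2 scale.

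**Figure D4:**
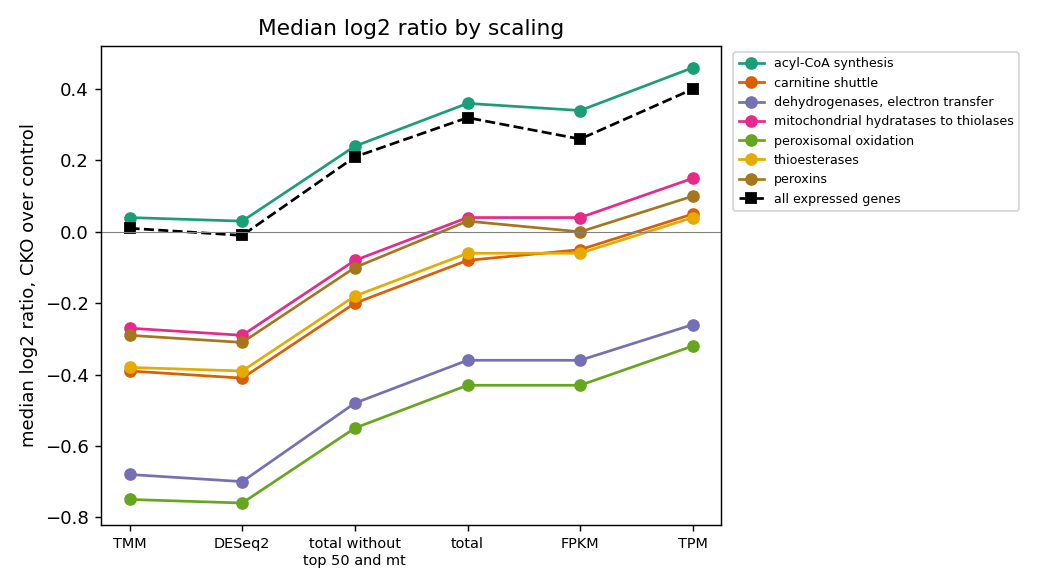
Median log2 ratio (y axis) of each role group and of all expressed genes under 6 scalings or units (x axis; the authors' normalized table gives the TMM values and is not drawn). Peroxisomal oxidation runs from -0.76 to -0.32 and the dehydrogenases from -0.70 to -0.26, both below 0 throughout, while the later mitochondrial steps and the peroxins are above 0 on library totals and TPM.

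PPAR-alpha acts with its partner RXR on a direct repeat of AGGTCA with 1 base between. This 13-base motif (AGGTCA, any base, AGGTCA) was searched on both strands, allowing 2 mismatches outside the free base, in RefSeq promoter windows (GRCm38, 250 bases before to 50 after a start) found for 61 of the 75 member genes. A match lay in 6 of these 61 genes (9.84%) and in 1190 of 27025 genes with a window (4.4%). With at most 1 mismatch there was 1 member gene, and no member gene held the exact motif, which 13 of all genes did. The 6 stretches are shown 5′ to 3′ on the strand of the gene with the match in capitals, because no other member gene with a window carried a match. The windows of Acot12, Acot4 and Acox2 surround starts that lie inside the annotated gene, by 195, 1125 and 180 bases, and a match on the opposite strand reads as TGACCT, any base, TGACCT.
Acot12, chr13:91741411-91741423: taggacccTGACCTCTCACCTcctaagca
Acot4, chr12:84038366-84038378: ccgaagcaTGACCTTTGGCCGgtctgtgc
Acox2, chr14:8258818-8258830: gctgtcccAGGACAGAGGTGAgtcaagag
Cat, chr2:103485345-103485357: actctcagAGGTCAGAGAACAccagcagg
Echs1, chr7:140116492-140116504: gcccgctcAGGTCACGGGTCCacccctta
Etfa, chr9:55512308-55512320: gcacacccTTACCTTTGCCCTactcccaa
The single match with 1 mismatch belongs to Acot12, the member with the lowest ratio. The other 5 genes had log2 ratios from -0.87 for Acox2 to -0.47 for Acot4, and neither Ehhadh nor Pdk4 held a match in its window. A match is a run of letters and says nothing of binding, and a window without one says nothing of sites elsewhere.

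Other genes of the pathway were taken from 5 lists. The shares to set beside these lists and the markers below are those of all expressed genes and, for abundant genes, those of genes that reached 50 CPM. Of all expressed genes, 1.66% were at least 2-fold lower and 10.3% higher, and 6.85% were at least 1.5-fold lower. Among genes that reached 50 CPM, 2.78% were at least 2-fold lower and 3.03% higher, and 13% were at least 1.5-fold lower. Of 20 upstream regulators, all expressed, 2 (10%) were at least 2-fold lower and none higher. Of these 20, 16 were below 0, and the median of -0.25 turned to 0.07 on library totals, 0.17 on TPM and 0.10 on FPKM. Ppard, a nuclear receptor related to PPAR-alpha, had 1416 and 797 reads, 47.0 and 18.7 CPM, and was 2.51-fold lower (2.30 to 2.74). Hnf4a, a nuclear receptor of proximal tubule and liver cells that is also on the proximal tubule marker list, had 1421 and 688 CPM (2.06-fold lower, 2.03 to 2.10). Ppara itself was at 142 and 114 CPM, and its log2 ratio of -0.31 turned to 0.13 on TPM. Ppargc1a, the coactivator PGC-1alpha that drives mitochondrial genes, was level at 92.9 and 91.9 CPM, and its ratio of -0.02 turned to 0.30 on library totals.

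Targets of PPAR-alpha outside the members were split in direction. Of 20 listed, 17 were expressed and 8 of these were below 0, with a median of 0.22. None passed 2-fold downward and 3 (17.6%) did upward, against 10.3% of all expressed genes. Cyp4a14, which oxidises the far end of fatty acids, had 548 control and 3124 CKO reads, 18.2 and 73.4 CPM, a ratio of 4.03 (3.68 to 4.42). Plin2, a coat protein of lipid droplets, had 436 and 1658 reads, 14.5 and 38.9 CPM (2.69, 2.42 to 3.0), and Txnip was at 170 and 353 CPM (2.07, 2.01 to 2.14). Lowest on that list was Slc22a5, the carnitine carrier, at 395 and 220 CPM (1.79-fold lower, 1.74 to 1.84).

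Genes of fatty acid uptake and of malonyl-CoA, the inhibitor of CPT1, had none of 13 expressed genes past 2-fold and a median of -0.13, which turned to 0.17 on library totals and 0.27 on TPM. Cd36, a fatty acid translocase, was lowest with 651 and 333 CPM (1.96-fold lower, 1.91 to 2.0), and the carnitine carrier Slc22a5 is on this list too. Breakdown of ketone bodies and branched-chain amino acids went with the oxidation enzymes: 18 of 20 genes were below 0, 12 passed 1.5-fold downward and 1 of these 2-fold, with a median of -0.61. Acat1, the mitochondrial acetoacetyl-CoA thiolase, had 960 and 469 CPM (2.05-fold lower, 2.01 to 2.08), and Ivd, an acyl-CoA dehydrogenase of leucine breakdown, 350 and 179 CPM (1.95-fold lower, 1.89 to 2.01).

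Genes of other peroxisomal proteins were mostly lower as well. Of 40 such genes 35 were expressed, 30 of them below 0, 5 (14.3%) at least 2-fold lower and 1 (2.86%) higher, with a median of -0.55. The 5 were Agps, of ether lipid synthesis, Nudt19, a CoA diphosphatase, Ephx2, the soluble epoxide hydrolase, Amacr, the racemase of branched acyl-CoA, and Acnat2. Agps had 16130 and 9512 reads, 536 and 223 CPM, and was 2.40-fold lower (2.34 to 2.46). The 1 that was higher was Abcd2, a transporter of very long-chain acyl-CoA into peroxisomes. It had 0 reads in the control and 48 in CKO, or 11.3 times a floor of 3 reads in the control library. The exact counting interval of its ratio starts at 8.85. Abcd2 reached 1 CPM only in CKO, at 1.13 CPM, and its call depends on the setting. Its log2 ratio of 1.70 was 0.64 with a pseudocount of 2 CPM, 0.91 on TPM and 0.47 on FPKM.

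**Figure D5:**
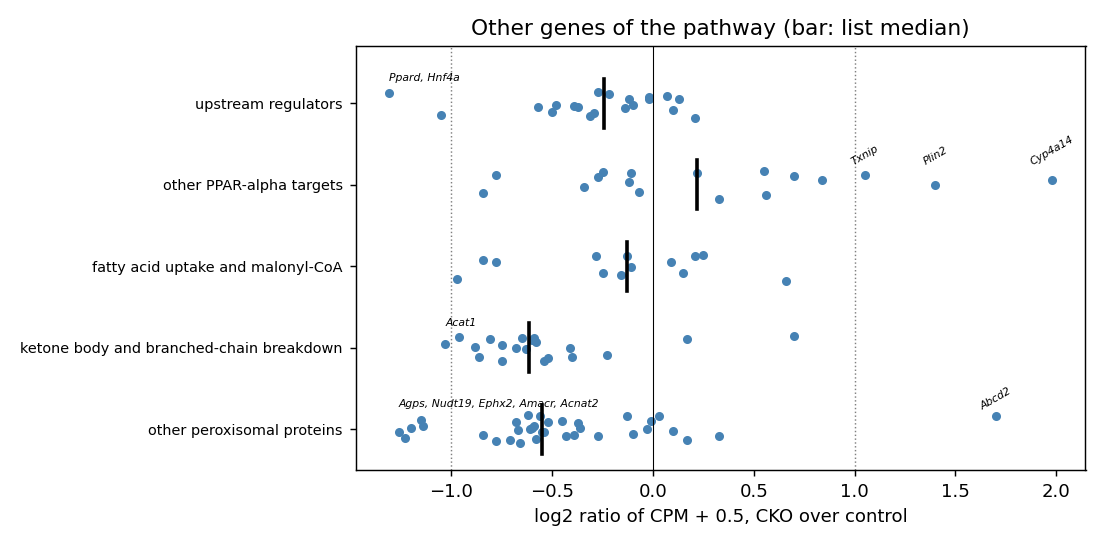
Log2 ratio of CPM + 0.5, CKO over control (x axis), for the expressed genes of 5 pathway lists, 1 point a gene, with a bar at each list's median and dotted lines at 2-fold. Ketone body and branched-chain genes (-0.61) and other peroxisomal genes (-0.55) lie to the left, other PPAR-alpha targets (0.22) extend to the right up to Cyp4a14, and Abcd2, with 0 control reads, is drawn at its value with 0.5 CPM added.

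Markers of cell types differed between the libraries as well. Of 22 proximal tubule markers, all expressed, 21 were below 0 and 5 at least 2-fold lower, with a median of -0.59 and a summed level of 62830 CPM in the control and 32108 in CKO. Markers of the straight S3 segment, where peroxisomes are especially dense, had a median of -1.0 over 10 genes, with 8 below 0, 5 at least 2-fold lower and 1, Slc7a12, at least 2-fold higher (340 and 2457 reads), and sums of 8744 and 4068 CPM. Summed CPM of the members was 17306 and 11122, 1.56-fold lower, where it was 1.96-fold lower for the proximal tubule markers and 2.15-fold lower for the S3 markers. On this scale the summed CPM of all genes was itself 1.25-fold lower in CKO. That of genes with 50 CPM or more was 1.31-fold lower. Kap, at 15529 and 4858 CPM, is on the proximal tubule list and also on the list of male-biased genes below, as are Slc7a13 and Serpina1f of the S3 list. Without the shared genes, a setting chosen after seeing the data, the sums were 1.74-fold lower for 21 proximal tubule markers and 2.17-fold lower for 8 S3 markers.

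Markers of the other kidney, immune and stromal cell types were level or higher in CKO. Those of loop, distal and collecting duct cells had a median of 0.31 over 14 genes (2711 and 3782 CPM summed), those of podocytes and endothelium -0.03 over 11 (812 and 775 CPM), those of macrophages and lymphocytes 2.28 over 13 expressed genes, 12 of them at least 2-fold higher (82.8 and 371 CPM), and those of fibroblasts and muscle 1.45 over 10, with 7 at least 2-fold higher (307 and 869 CPM). Of 10 adipocyte markers only Lipe was expressed, and Adipoq, Plin1, Cfd, Lep, Retn and Cidea had 0 reads in both libraries. Of 15 genes of tubular injury 14 were at least 2-fold higher (645 and 5792 CPM summed), and of 11 genes known to be male-biased in mouse kidney 10 were at least 2-fold lower (26344 and 8409 CPM). The part of cell make-up, injury or sex in the lower levels of the fatty acid oxidation and peroxisome genes was not tested.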

How the data were processed

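Total RNA from whole mouse kidneys was made into libraries with a stranded mRNA kit, per the labels' protocols. Per the submitters' processing notes, the tools included STAR 2.7.3a and Cufflinks 2.2.1, with HTSeq, edgeR, DESeq2 and FastQC also listed, and the build was mm10; roles are not given in the sources used here. Per the file headers, the authors' table holds raw read counts per gene, FPKM and TPM. A second deposited table holds normalized signal for 19550 genes, which equalled the count divided by 1 constant per library (30.1 and 42.6, largest relative deviation 5.11e-15).

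CPM were computed from the counts with TMM factors of 0.896 (control) and 1.12 (CKO) in edgeR 4.0.16, with 1 CPM in either library as the minimum. Alternatives used DESeq2 1.42.0 size factors, totals, other units, pseudocounts, minimums and limits. Levels of different genes were compared by TPM. Coordinates are RefSeq GRCm38, and near-identical copies were found with blastn 2.17.0. Of the 75 members, 45 have such a copy or overlap another gene. Among them Etfb matches Gm45233 at 99.7% over 626 bases, Hadhb matches Gm13910 at 99.8% over 1428, and Pex11g matches Gm44775 at 100% over 1398. Counts were simulated for this comparison over 45777 genes with Poisson counting error only and no spread between animals. In them 100 of 100 genes made 4-fold higher and 98 of 100 made 4-fold lower passed 2-fold, and 0 of 14681 unchanged genes did. This checks the computation and gives no rate of false calls for these libraries.

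The members and lists were chosen with earlier results of these data known. Named genes were those past 2-fold, the most abundant and the 2 with the largest ratio in each role group, the 2 with the largest ratio in each pathway list, and Ppara and Ppargc1a. Further names, given to show a family or step, were chosen after their values were seen. Protein ends that direct import into peroxisomes were not analysed here. A few genes that the rule takes in are not reported here.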

Additional observations from a re-analysis of the deposited data

How the results depend on the processing

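Both libraries were deep for the members, and 61 of 71 ratio intervals lay wholly below 1, so the lack of replicates and the scaling, not depth, limit these results; Cpt1c, with 28 control reads, is the least precise of the 4 past 2-fold. The count of members at least 2-fold lower, 2 on the TMM scale, was 0 on library totals, 0 on TPM, 0 on FPKM, 1 on trimmed totals, which leave out the 50 most abundant genes and those of mitochondrial DNA (Acot12), and 21 at a 1.5-fold limit. It was 1 (Ehhadh) over the 29 members without a near-identical copy or overlapping gene, and 1 (Acot12) when ratios were taken against the median of genes with 50 CPM or more, a setting chosen after seeing the data. The count of members at least 2-fold higher was 1 with a minimum of 10 CPM (Pdk4) and 3 on library totals, TPM and FPKM, with Acsl4 added. The members' median of -0.40 was -0.09 on totals, -0.21 on trimmed totals, 0.01 on TPM, -0.09 on FPKM and -0.20 against the abundant genes. DESeq2 size factors, the authors' normalized table and pseudocounts of 0.1 and 2 CPM kept both counts and the same genes. No paired analysis was possible because each group has 1 library.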

Other observations

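Eci3, a mouse enoyl-CoA isomerase gene next of kin to Eci2 that the symbol rule does not take in, had 4477 control and 2270 CKO reads, 149 and 53.3 CPM, and was 2.79-fold lower (2.65 to 2.93; exact counting interval). Eci2 was at 106 and 89.1 CPM (1.19-fold lower, 1.13 to 1.25). The transcripts of both genes match at 92.3% over 807 bases, and the authors' handling of reads that fit both is not given in the sources used here. Acot5, left out of the counts because neither library reached 1 CPM, had 0 control and 25 CKO reads, 5.89 times a floor of 3 reads in the control library, and the exact counting interval of its ratio starts at 4.45.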
